A study of Mus musculus with 8 samples.

Results

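Small heat shock proteins are chaperones that hold unfolding proteins in a soluble state without using ATP, and cardiac muscle carries several of them on its filaments and Z-discs. BAG3 is a co-chaperone that links HSPB8 to HSC70, and the complex delivers damaged filamin and other muscle proteins to autophagy, a route called chaperone-assisted selective autophagy. The 8 genes described here, *Hspb1*, *Hspb2*, *Hspb3*, *Hspb6*, *Hspb7*, *Hspb8*, *Cryab* and *Bag3*, were taken by their symbols from a count table of 40690 genes, with earlier results of these data known. All 8 were among the 13622 genes that passed the filter on low counts.

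The libraries held polyadenylated RNA of whole ventricle at postnatal day 1. In 4 NAE1CKO mice, floxed *NAE1*, a subunit of the enzyme that activates the ubiquitin-like protein NEDD8, was deleted by Cre under the αMHC promoter, which is active in cardiomyocytes, so other cells of the ventricle kept the gene. The comparison group was 4 littermate controls (CTL), labelled as wild type, with no statement of whether they carried Cre or the floxed allele. The NAE1CKO libraries were titled KO-443-3 and KO-443-5 (the first title set) and KO-453-6 and KO-453-7 (the second title set). Those of CTL were titled WT-443-7 and WT-443-8 (the first) and WT-453-3 and WT-453-5 (the second), and values are given in this order throughout. What the middle number of a title stands for was not stated.

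Total counts ranged from 16304420 to 18593509 in NAE1CKO and from 13932821 to 18056322 in CTL. One library, WT-453-5, had 12.8% of its counts on a single gene, *Gm42418*, against at most 4.62% in the others. *Nae1* had a mean of 12.0 CPM (counts per 1e6, after TMM scaling of library sizes) in NAE1CKO and 23.4 in CTL, with no overlap between the groups. All 10 cardiomyocyte markers were detected, and their summed level was 59742 to 64480 CPM in NAE1CKO and 71726 to 87082 CPM in CTL, with 6 markers lower (*Pln*, *Ryr2*, *Tnni3* and *Myh6* among them), none higher and 4, including *Actc1* and *Tnnt2*, that did not pass. The summed levels of 6 smooth muscle markers (5001 to 5927 against 2049 to 2196 CPM) and 6 macrophage markers (90.7 to 128 against 57.4 to 68.4 CPM) were higher in each NAE1CKO library than in any CTL library. Most of the smooth muscle sum was *Acta2*, with a mean of 4901 CPM in NAE1CKO and 1725 CPM in CTL. Of the smooth muscle markers 3 rose (*Acta2*, *Tagln* and *Cnn1*), 2 fell, *Myh11* among them (0 with scaling by library size alone), and *Myocd* did not pass, and all 6 macrophage markers rose, including *C1qa*, *C1qb*, *Csf1r* and *Cd68*. Of 5 atrial markers *Nppa* and *Myl4* rose. The other 3 did not pass, with log2 fold changes of -0.64 (*Sln*), -0.21 (*Myl7*) and -0.80 (*Bmp10*), and DESeq2 called *Bmp10* lower (adjusted p = 0.0125). As these markers moved both ways, they were not read as a change in atrial tissue. Of 6 genes listed as skeletal muscle markers 3 were abundant enough to test, 2 of which fell (*Ckm* and *Tnni2*), while *Myh4* had no count. *Ckm* had a mean of 1182 CPM in NAE1CKO and 2033 CPM in CTL, so with *Myh4* absent its fall was not read as one of skeletal muscle. Of 6 fibroblast markers 2 fell (*Pdgfra* and *Dcn*), of 6 endothelial markers 2 rose and 1 fell, and 0 of 5 erythroid markers passed. What part these shifts had in the results below was not tested. In bulk tissue, fewer cells of a type and less RNA per cell cannot be told apart.

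Of the 8 genes, 4 rose in NAE1CKO (*Hspb8*, *Hspb1*, *Cryab* and *Hspb7*) and 0 fell by edgeR's quasi-likelihood test at a Benjamini-Hochberg adjusted p under 0.05. Over all genes tested, 18.6% were higher and 17.6% lower by the same test, 36.3% in all. *Hspb8* and *Hspb1* also passed a fold of 1.5, as did 7.31% of all genes in the higher direction and 5.56% in the lower. The 4 genes that rose were those with each NAE1CKO library above each CTL library in CPM, a pattern that 18.6% of all genes showed, and no member had each NAE1CKO library below each CTL library, against 17.9% of all genes. At an unadjusted p under 0.05, 1 member, *Hspb6*, was lower, and DESeq2 and limma-voom each called that gene lower. The median log2 fold change of the 8 genes was 0.14, and that of all genes tested was -0.00.

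**Figure D1:**
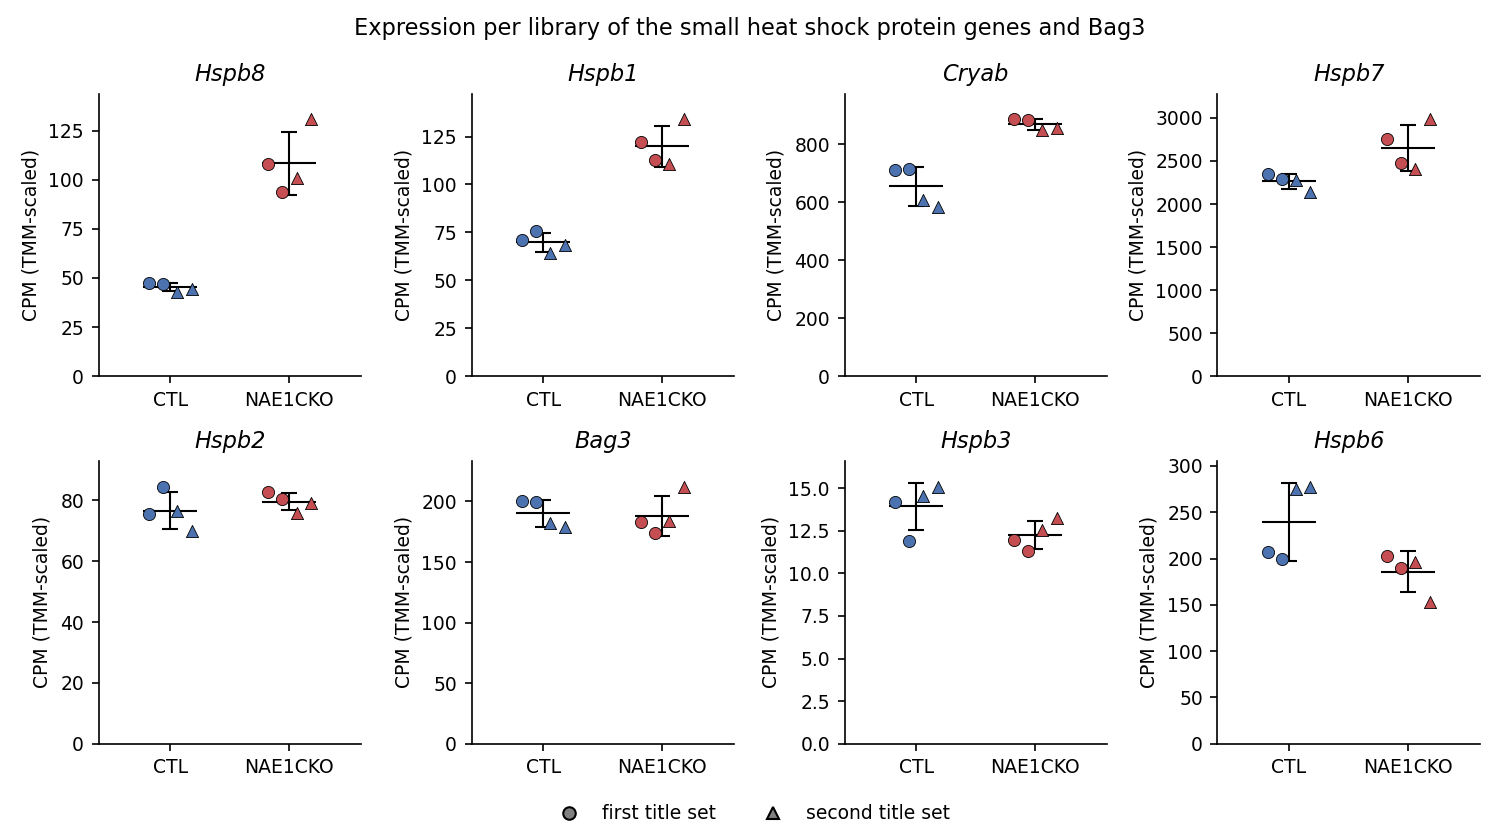
Expression of each gene in CPM (linear axes from 0) in the 4 CTL and 4 NAE1CKO libraries. Points are libraries, with circles for the first title set and triangles for the second, and bars are the mean and SD. In the upper row, *Hspb8*, *Hspb1*, *Cryab* and *Hspb7* have each NAE1CKO library above each CTL library. In the lower row the groups overlap.

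*Hspb8* encodes the small heat shock protein that binds BAG3. It lies on chromosome 5 from 116408491 to 116422864 of GRCm38, on the minus strand. Its level was 108, 93.8, 101 and 131 CPM in the NAE1CKO libraries and 47.5, 47.0, 42.7 and 44.3 CPM in the CTL libraries. The groups did not overlap, and the spread was wider in NAE1CKO (SD 16.0, n = 4) than in CTL (SD 2.25, n = 4), with KO-453-7 the highest. This was a log2 fold change of 1.25 ± 0.093 (SE; edgeR adjusted p = 2.10e-06), and *Hspb8* ranked 119th of the 13622 genes by p. Counts behind these values were 1677 to 2372 per library in NAE1CKO and 552 to 764 in CTL.

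*Bag3* encodes the partner of HSPB8 and lies on chromosome 7 from 128523616 to 128546981. Its level was 183, 174, 184 and 212 CPM in NAE1CKO and 200, 199, 182 and 179 CPM in CTL. The ranges overlapped, with the mean of the groups at 188 ± 16.6 and 190 ± 11.0 CPM (SD, n = 4 each). The log2 fold change of *Bag3* was -0.02, with a 95% interval from -0.17 to 0.13, and its adjusted p by edgeR was 0.881.

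The ratio of *Hspb8* counts to *Bag3* counts, which does not depend on how the libraries were scaled, was 0.589, 0.539, 0.548 and 0.616 in NAE1CKO. It was 0.237, 0.236, 0.234 and 0.247 in CTL, a range much narrower than the distance between the groups. The geometric mean of the ratio was 2.40-fold higher in NAE1CKO (p = 0.0286 by an exact two-sided permutation test, which is also the lowest p that the 70 arrangements of 4 against 4 libraries can reach). Of the 3 ratios tested, each gave this p, which stayed at 0.0286 after Benjamini-Hochberg adjustment over them. With labels permuted only within the title sets each p was 0.0556, the smallest which that exact test allows, so no ratio passed there.

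*Hspb1* encodes HSP27 (HSP25 in mouse), a chaperone of actin and desmin filaments that stress-activated kinases phosphorylate. The gene lies on chromosome 5 from 135887919 to 135889563. Its level was 122, 113, 111 and 134 CPM in NAE1CKO and 71.2, 75.8, 64.1 and 68.4 CPM in CTL, without overlap. KO-453-7 was again the highest library. *Hspb1* had a log2 fold change of 0.78 ± 0.073 (SE; edgeR adjusted p = 9.76e-06).

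*Cryab* encodes αB-crystallin, a chaperone of desmin and titin. It lies on chromosome 9 from 50751325 to 50756636. Its level was 887, 885, 848 and 856 CPM in NAE1CKO and 711, 714, 607 and 585 CPM in CTL. The groups did not overlap, and here the wider spread was in CTL (SD 68.1, against 19.8 in NAE1CKO, n = 4 each), where the first title set lay above the second. *Cryab* rose by a log2 fold change of 0.41 ± 0.070 (SE; edgeR adjusted p = 0.000766). The ratio of *Hspb1* to *Cryab* counts was 0.128 to 0.157 in NAE1CKO and 0.100 to 0.117 in CTL, 1.29-fold higher in NAE1CKO (two-sided exact permutation test, p = 0.0286).

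*Hspb2*, on chromosome 9 from 50751078 to 50752354, is transcribed from the strand opposite *Cryab*, and its product binds the kinase DMPK in muscle. The annotated exons of *Hspb2* and *Cryab* share 252 bases on opposite strands, and the strand setting of the counting was not stated, so reads there cannot be assigned to either gene with certainty. *Hspb2* had 82.7, 80.5, 75.8 and 79.2 CPM in NAE1CKO and 75.4, 84.5, 76.6 and 70.0 CPM in CTL, with overlap. The log2 fold change of *Hspb2* was 0.05, with a 95% interval from -0.08 to 0.19 (edgeR adjusted p = 0.538). The ratio of *Hspb2* to *Cryab* counts was 0.0895 to 0.0933 in NAE1CKO and 0.106 to 0.126 in CTL, and it fell by 0.36 on the log2 scale (two-sided exact permutation test, p = 0.0286).

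**Figure D2:**
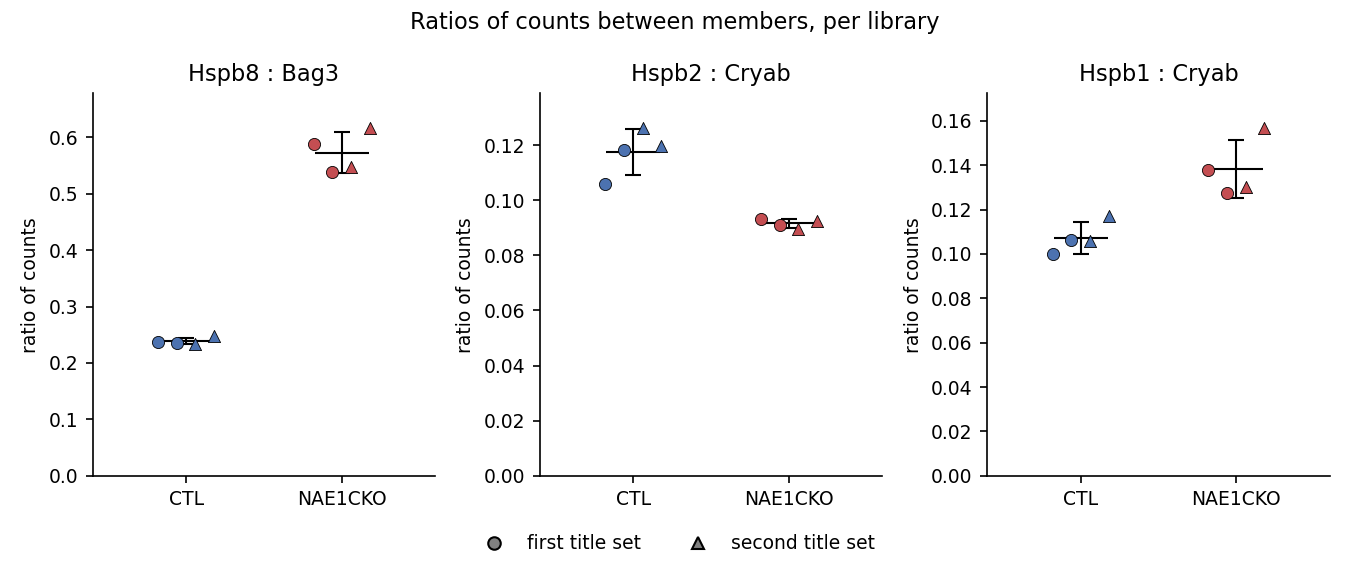
Ratios of counts between pairs of genes in each library (linear axes from 0), with CTL and NAE1CKO side by side. Points are libraries, circles are the first title set and triangles the second, and bars are the mean and SD. In each of the 3 pairs the groups do not overlap. *Hspb8* to *Bag3* lies at 0.539 to 0.616 in NAE1CKO and 0.234 to 0.247 in CTL.

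*Hspb7*, on chromosome 4 from 141420779 to 141425311, encodes a heart-enriched small heat shock protein of the thin filament. It was the most abundant of the family, in CPM and per exon length, and ranked 33rd by CPM among all genes tested in CTL. Its level was 2752, 2474, 2403 and 2985 CPM in NAE1CKO and 2353, 2286, 2275 and 2143 CPM in CTL. The groups did not overlap, although KO-453-6 lay only slightly above WT-443-7. *Hspb7* rose by a log2 fold change of 0.23 ± 0.071 (SE; edgeR adjusted p = 0.0245). The call was lost when KO-443-3, KO-453-7 or WT-453-5 was left out, with log2 fold changes of 0.21, 0.17 and 0.20 and adjusted p-values of 0.0716, 0.0519 and 0.0737.

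*Hspb6* encodes HSP20, a substrate of protein kinase A in cardiomyocytes, and lies on chromosome 7 from 30552178 to 30555443, where its exons overlap those of *Lin37* and *Proser3* on the opposite strand. Its level was 203, 190, 196 and 153 CPM in NAE1CKO and 207, 200, 275 and 278 CPM in CTL. In 1 of the 16 pairings of a NAE1CKO with a CTL library the NAE1CKO library was the higher. The log2 fold change of *Hspb6* was -0.37 ± 0.130 (SE; edgeR adjusted p = 0.0508), just above the threshold. It passed in 9 of 19 alternative settings or subsets of libraries, among them DESeq2 (adjusted p = 0.0117), over a range of adjusted p from 0.0117 to 0.170, and the direction was the same in all 19.

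*Hspb3*, on chromosome 13 from 113662896 to 113663676, encodes a muscle protein that assembles with HSPB2. It was the least abundant in CPM and per exon length, at 12.0, 11.3, 12.6 and 13.2 CPM in NAE1CKO and 14.2, 11.9, 14.6 and 15.1 CPM in CTL. The groups overlapped through WT-443-8. The log2 fold change of *Hspb3* was -0.18, with a 95% interval from -0.39 to 0.03 (edgeR adjusted p = 0.163).

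*Hspb6* and *Bag3* gave unlike values within the title sets. *Hspb6* had a log2 fold change of -0.05 within the first title set and -0.67 within the second (2 against 2 libraries each). Its CTL level was 207 and 200 CPM in the first set and 275 and 278 CPM in the second. *Bag3* had a log2 fold change of -0.16 within the first set and 0.13 within the second. The interaction of group and title set had an unadjusted p of 0.000991 for *Hspb6*, 0.0171 for *Bag3* and 0.0417 for *Cryab*, and adjusted over all genes these were 0.251, 0.443 and 0.506 (edgeR). No gene of 13622 passed that adjustment, while 1307 (9.59%) had an unadjusted p under 0.05.

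The genes that rose had fold changes of the same sign within both title sets. This largely follows from each NAE1CKO library lying above each CTL library in these genes. Within the first and the second set the log2 fold change was 1.09 and 1.41 for *Hspb8*, 0.68 and 0.88 for *Hspb1*, 0.31 and 0.51 for *Cryab*, and 0.17 and 0.28 for *Hspb7*. In 6 of the 8 genes the value was larger (more positive) within the second set. The share of all genes that did the same was not counted, so whether this was particular to these genes cannot be told. Among NAE1CKO libraries, KO-453-7 held the highest value of 5 of the 8 genes (*Hspb1*, *Hspb3*, *Hspb7*, *Hspb8* and *Bag3*) and the lowest of *Hspb6*. Of all genes tested, 31.3% were highest in that library among the NAE1CKO libraries.

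**Figure D3:**
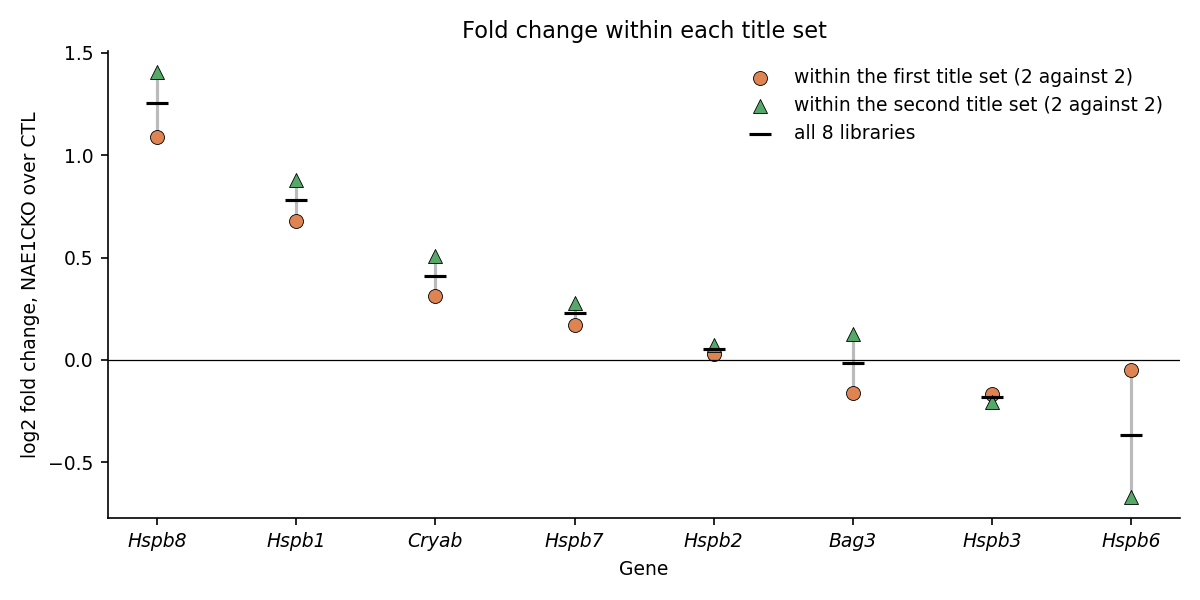
Log2 fold change of NAE1CKO over CTL for each gene, within the first title set (circles), within the second (triangles) and over all 8 libraries (bars). Each within-number value compares 2 libraries with 2, and no error is drawn. *Hspb8*, *Hspb1*, *Cryab* and *Hspb7* lie above 0 in both. *Bag3* changes sign, and *Hspb6* goes from -0.05 to -0.67.

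To compare levels between genes, CPM was divided by the length of the annotated exons in kb. The lengths of *Hspb2* and *Cryab* include the 252 bases that they share. How reads there were counted was not stated, so the level of *Hspb2* and its place among its neighbours, *Hspb1* included, are uncertain. In CTL the order was *Hspb7* (818 CPM per kb), *Cryab* (442.5), *Hspb6* (104), *Hspb2* (91.9), *Bag3* (74.3), *Hspb1* (67.8), *Hspb8* (23.3) and *Hspb3* (17.8). The ranges of *Hspb6* and *Hspb2* overlapped, as did those of *Bag3* and *Hspb1*, so these neighbours were not separated. In NAE1CKO *Hspb1* was in place 3 at 116 CPM per kb, above *Hspb2* (95.4), *Hspb6* (80.7) and *Bag3* (73.5), of which the last pair overlapped. *Hspb8* was in place 7, at 55.5 CPM per kb, with *Hspb7* at 958, *Cryab* at 587 and *Hspb3* at 15.7. Dividing by the longest transcript exchanged *Hspb1* and *Bag3* in CTL and kept the order in NAE1CKO, where the ranges of *Hspb2* and *Hspb6*, of *Hspb6* and *Bag3* and of *Bag3* and *Hspb8* then overlapped.

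**Figure D4:**
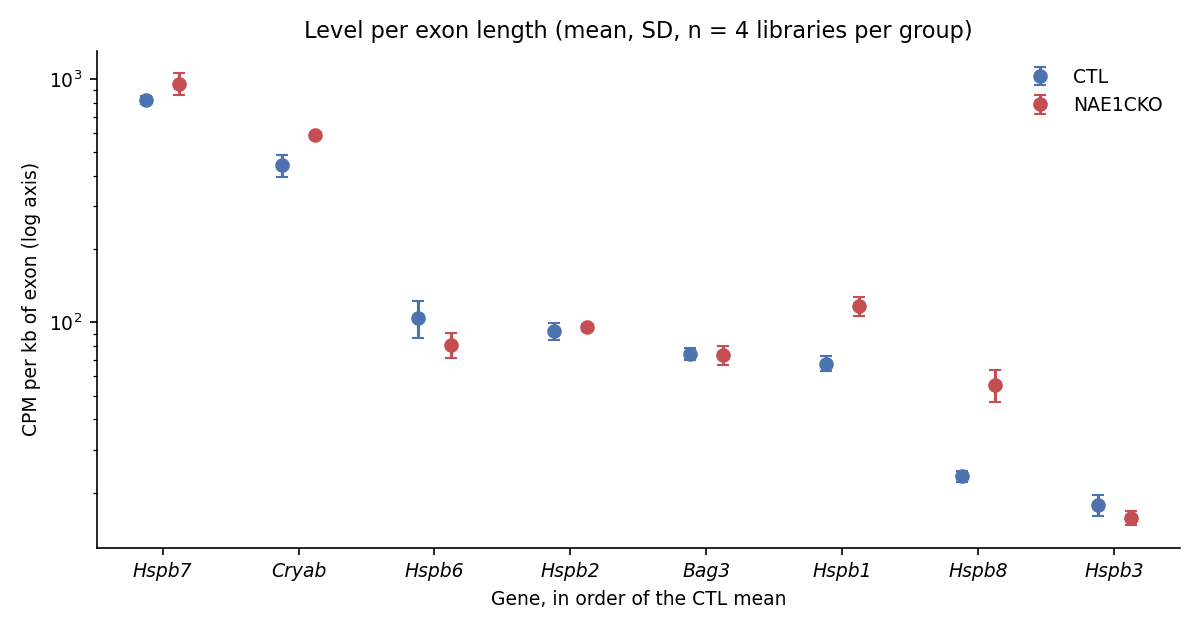
Level of each gene in CPM per kb of annotated exon (log axis), as the mean and SD of 4 libraries per group, ordered by the CTL mean. *Hspb7* and *Cryab* stand highest in both groups. *Hspb1* moves from the sixth place in CTL (67.8) to the third in NAE1CKO (116). The level of *Hspb2* is uncertain because it shares exon bases with *Cryab*, and so are the places of its neighbours.

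Together the 7 small heat shock protein genes took 0.414 ± 0.0319% of counts in NAE1CKO and 0.327 ± 0.0289% in CTL (SD, n = 4 each). Their summed level was 4028 CPM in NAE1CKO and 3364 CPM in CTL, a ratio of 1.20. *Hspb7* made up 65.8% and 67.3% of the summed counts. Without it the sums were 1374 and 1100 CPM, a ratio of 1.25.

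Heat shock factor binds inverted repeats of the letters GAA, and the shortest such pair, GAANNTTC, was searched on the transcribed strand of RefSeq promoters on GRCm38.p6, from 250 bases before to 50 after each start. The table held 7 promoters of 6 members, with 2 starts for *Hspb6*, and the other members, *Cryab* and *Hspb2*, were not searched. The match, in capitals, is shown with up to 10 flanking bases, since the letters GAAGTTTC recurred in several of the genes.
Hspb8: gaagccaggaGAAGTTTCtaggctcgcg
Hspb1: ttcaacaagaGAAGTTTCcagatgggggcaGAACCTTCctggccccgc
Bag3: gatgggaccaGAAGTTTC
Hspb6, second start: agtaattattGAAGTTTCtaaataagga
Hspb3: tccccgaatgGAATTTTCaggcagaggg

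The windows were chr5:116422845-116422872 on the minus strand for *Hspb8*, chr5:135887792-135887839 on the plus strand for *Hspb1* and chr7:128523615-128523632 on the plus strand for *Bag3*. Those of *Hspb6* and *Hspb3* were chr7:30553171-30553198 on the plus strand and chr13:113663883-113663910 on the minus strand. Counted from the start site, the match began at base 3 in *Hspb8*, at -117 and -97 in *Hspb1*, at 43 in *Bag3*, at -120 in *Hspb6* and at -224 in *Hspb3*. *Hspb7* and the first start of *Hspb6* had no match.

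GAANNTTC was in 5 of the 7 promoters, in 7.86% of all 32851 promoters of the table and in 5.63% of those of tested genes. The other orientation of the pair, TTCNNGAA, was in none of the 7, in 8.52% of all and in 6.92% of those of tested genes. Both strings read the same on either strand. At least 1 of them was in 5 of the 7, in 15.1% of all promoters and in 11.7% of those of tested genes. GAAGTTTC or its reverse complement GAAACTTC, a string chosen after the matches were seen, was in 4 of the 7 and in 1.21% of all promoters. The longer array, in which one more GAA unit follows at the same spacing on either strand, was in none of the 7 and in 0.603% of all. The antioxidant response core TGACNNNGC, searched on both strands, was also in none of the 7 and in 12.4% of all. The matches were spread over genes that rose (*Hspb8*, *Hspb1*) and genes that did not pass the test (*Bag3*, *Hspb6*, *Hspb3*), and they describe letters only.

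Among other genes listed with the small heat shock proteins by name, *Hspb11* had a log2 fold change of 0.04 and did not pass. *Cryaa*, *Hspb9* and *Odf1* were too low to test, with 0, 14 and 2 counts over the NAE1CKO libraries and 0, 20 and 1 over the CTL libraries. For the lists from here on, the shares to set beside the counts are 18.6% of all genes higher and 17.6% lower. Of the 5 other BAG genes 2 rose. These were *Bag2*, an inhibitor of the ubiquitin ligase CHIP, with a log2 fold change of 0.63 ± 0.073 (SE; edgeR adjusted p = 4.21e-05), and *Bag5* with 0.21. *Bag6* (0.04) and *Bag1* (0.11) did not pass.

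Of 11 genes whose products work with BAG3 in selective autophagy 5 rose, 2 fell and 4 did not pass, with a median log2 fold change of 0.09. *Synpo2*, whose product couples BAG3 to the membrane machinery of autophagosomes, rose by a log2 fold change of 1.14 ± 0.077 (SE; edgeR adjusted p = 8.05e-07), near the value of *Hspb8*. *Stx7*, a SNARE protein of late endosomes, rose by 0.27. *Map1lc3b*, the autophagosome protein LC3B, and *Tsc1*, an inhibitor of mTORC1 that binds BAG3, fell by 0.48 and 0.44 on the log2 scale. *Stub1*, which encodes CHIP (-0.13), and *Lats1* (0.09) did not pass.

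Of 9 filament and Z-disc genes whose products the members bind, 3 rose, 1 fell and 5 did not pass. *Flnc*, which encodes filamin C, a client of the BAG3 complex, had 1339 ± 101 CPM in NAE1CKO and 724 ± 41.1 CPM in CTL (SD, n = 4 each), a log2 fold change of 0.89 (edgeR adjusted p = 1.55e-06). *Des*, the desmin gene, rose by 0.38 and *Vim*, which encodes vimentin, by 0.29. *Ldb3*, a Z-disc protein gene, fell by 0.30. *Actc1* had a log2 fold change of 0.06 and *Ttn* one of -0.35, and neither passed, while DESeq2 called *Ttn* and *Dmpk* lower as well, at adjusted p-values of 0.0319 and 0.0330.

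Of 7 kinases of small heat shock proteins 1 rose, 3 fell and 3 did not pass. *Mapkapk2*, the main kinase of HSP27, rose by a log2 fold change of 0.17, and its relative *Mapkapk3* fell by 0.80. *Prkaca*, the catalytic subunit of protein kinase A that phosphorylates HSP20, fell by 0.37, and *Prkd1* fell by 0.49. *Mapk14* (-0.05), which encodes p38α, and *Mapkapk5* (0.07) did not pass.

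Of 17 genes of HSF1 and the heat shock response, 6 rose, 1 fell and 10 did not pass, with a median log2 fold change of 0.16. *Hsp90aa1*, the inducible HSP90, rose from 29.1 ± 2.18 to 55.7 ± 2.03 CPM (SD, n = 4 each), a log2 fold change of 0.93 (edgeR adjusted p = 1.05e-06). *Dnajb4* rose by 0.57 and *Hspa4l* by 0.46, and the co-chaperone gene *Fkbp4* fell by 0.49. *Hspd1* (-0.04) and *Ahsa1* (-0.03) did not pass. *Hspa1a*, the classic inducible HSP70 gene, had 57 counts over the NAE1CKO libraries and 26 over the CTL libraries, a log2 fold change of 0.89 with an adjusted p of 0.0674 by edgeR. It passed with scaling by library size alone (0.97, adjusted p = 0.0489), which made 7 genes of the list higher. Its near-identical copy *Hspa1b* makes the counts of both genes uncertain.

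**Figure D5:**
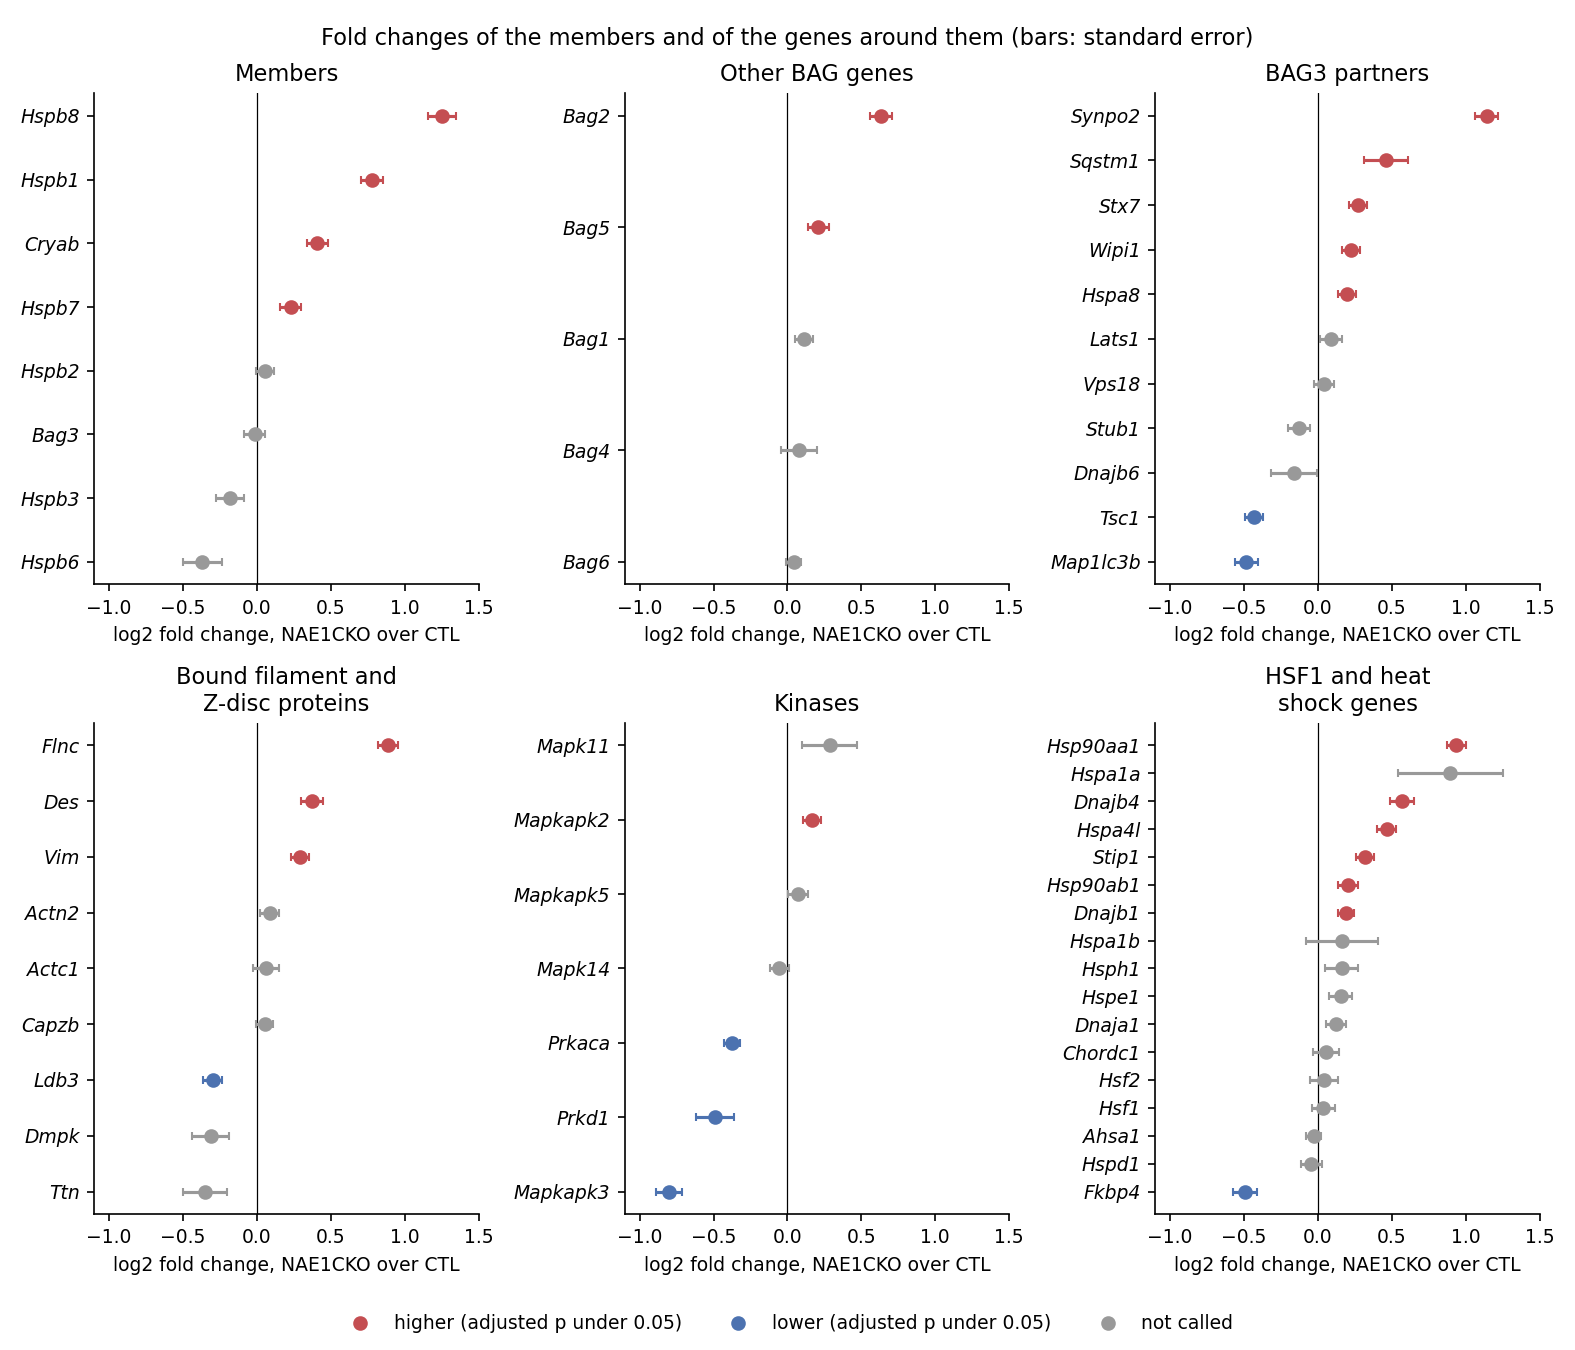
Log2 fold change of NAE1CKO over CTL, with its standard error, for the 8 genes and for 5 lists of genes around them. Colours give the edgeR call at an adjusted p under 0.05. Each list is sorted by fold change, so its highest gene stands at the top by construction. These include *Hspb8* at 1.25, *Synpo2* at 1.14, *Hsp90aa1* at 0.93 and *Flnc* at 0.89. *Synpo2*, *Hsp90aa1* and *Flnc* were each the only gene of their list called past a fold of 1.5. Over all genes tested, 1754 of 13622 were called past that fold. *Mapkapk3* among the kinases lies lowest, at -0.80.

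The genes whose profile over the 8 libraries was closest to *Hspb8*, by the root mean square difference of centred log2 CPM, were *Pgd*, of the pentose phosphate pathway (0.066), *Map1a*, a microtubule protein gene (0.076), and *Ctss*, which encodes cathepsin S (0.080), with log2 fold changes of 1.26, 1.31 and 1.27. *Hspb1* came 231st in that order. Closest to *Hspb1* were *Fzd2*, a Wnt receptor gene (0.041), *Arhgap1* (0.053), and *Cttn*, the cortactin gene (0.054), with log2 fold changes of 0.77, 0.80 and 0.69, and *Cryab* came 624th. The distance was not scaled to the spread of each gene, so genes of like fold change lie close by construction. These places therefore largely restate the fold changes and are no separate evidence of shared regulation.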

How the data were processed

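The deposited table held raw counts for each Ensembl gene, which the authors made with STAR 2.0.4b and featureCounts 1.4.5 (with Subread and bcl2fastq also named in the submitters' processing notes). Build, annotation and strandedness were not given in the sources used here. In all it had 41264 lines, of which 574 repeated a gene. Groups followed titles and genotype labels. Libraries of a group differed beyond sampling noise (chi-square per gene of 4.26 to 72.6). The highest values, 64.3 to 72.6, were those of pairs with WT-453-5, and all other pairs lay at 4.26 to 17.8. P-values measure the spread between these libraries.

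Counts were filtered with filterByExpr, scaled by TMM and tested with edgeR 4.0.16 (quasi-likelihood, robust, Benjamini-Hochberg over all genes tested) in R 4.3.3. Calls used an adjusted p under 0.05. DESeq2 1.42.0, limma-voom (limma 3.58.1), other scalings and filters, the title number as a block and leaving out each library were alternatives. Ratios of counts were compared by exact permutation. CPM are TMM-scaled. Positions and exon lengths came from GENCODE M21 (GRCm38) and promoters from RefSeq. The test was checked on simulated counts, where 14 of 190 calls were false (7.37%) and 80.3% of the genes changed 1.5-fold were recovered. Far fewer genes were changed there than were called in these data, and no difference between title sets was simulated.

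The members and all lists were chosen with earlier results of these data known. Named were all members, *Nae1*, up to 4 called genes per list by smallest adjusted p, up to 2 not called by mean CPM, and the 3 closest profiles of members past 1.5-fold. *Gm42418*, *Dmpk*, *Hspa1a*, *Hspa1b* and *Bmp10* were named after their values were seen, as were genes too low to test and overlapping genes.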

Additional observations from a re-analysis of the deposited data

How the results depend on the processing

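*Hspb8*, *Hspb1* and *Cryab* passed the test in all 19 alternatives, with log2 fold changes of 1.15 to 1.33, 0.72 to 0.86 and 0.36 to 0.49, and *Bag3*, *Hspb2* and *Hspb3* in none. *Hspb7* passed in 16 of 19, and without 1 library its log2 fold change ranged from 0.17 to 0.27. *Hspb6* became a called decrease with RLE scaling (-0.37), upper quartile scaling (-0.40), DESeq2 (-0.37), limma-voom (-0.36), a minimum of 1 CPM in 4 libraries (-0.37), no robust estimation (-0.37) and without *Gm42418* (-0.37), and the number of members lower was then 1 in place of 0. Without 1 library its log2 fold change ranged from -0.45 to -0.29 and the number of members lower from 0 to 1, the calls coming without WT-443-7 or WT-443-8. The cause was not tested. The number of members higher was 2 with a fold past 1.5, and 3 to 4 without 1 library.

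Of all genes, 2537 were higher and 2401 lower, 996 and 758 with a fold past 1.5. Scaling by library size alone gave 3177 higher and 1532 lower, and an adjusted p under 0.01 gave 1486 lower. Scaling by library size alone also moved the HSF1 and heat shock list from 6 to 7 higher, through *Hspa1a*. With DESeq2, 3 filament and Z-disc genes were lower in place of 1. The title number as a replicate block changed no call of a member. For the 3 ratios, labels permuted within title number gave p = 0.0556 by exact permutation, the smallest that this pairing allows, with log2 differences of 1.26, -0.36 and 0.36. Whether depth limited the small heat shock protein genes too low to test was not tested.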
